A study of Homo sapiens with 6 samples.

Results

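The regions described here are the tallest narrow peaks of accessible chromatin in DAMI, a human leukaemia cell line labelled as MPN/AML (myeloproliferative neoplasm, acute myeloid leukaemia). The assay was ATAC-seq: the transposase Tn5 inserts sequencing adapters where DNA is open. Per the labels, 3 samples carried a control lentivirus and 3 carried shHMGA1, a short hairpin RNA against HMGA1 delivered in the same kind of virus. The HMGA1 protein shapes chromatin by binding the minor groove of AT-rich DNA. The deposited data are 1 peak list per group, with no values per sample, so every comparison below sets 1 list against 1 list. No difference between them has a replicate check and no test was possible. The labels do not say whether the samples of a group came from separate cultures. Markers of the line could not be looked up, because the lists hold no gene names. Neither could the level of HMGA1 itself, so the knockdown is known only from the labels.

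Height was measured as area per base. The peak caller gives each peak an area under its curve of significance, and this area was divided by the width of the peak. In every peak the −log10 p at the summit exceeded area per base, by at least 2.07 in control and 2.16 in shHMGA1. Whether the area is counted above a floor was not tested, so area per base is not read as the mean significance along the peak. Peaks on chromosomes 1 to 22 that were narrower than 1000 bp are called narrow peaks here. There were 100785 of them among 127153 control peaks and 88549 among 112610 shHMGA1 peaks. The 1000 with the highest area per base in each list form the control set and the shHMGA1 set, 0.992% and 1.13% of the narrow peaks. These members were chosen by area per base and width, so both values are given as a description. All 1000 peaks of both sets carried the caller's highest score of 1000, as did 64.3% and 63.8% of all narrow peaks, so that score could not rank them.

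A narrow ATAC-seq peak usually marks 1 regulatory element, a promoter, enhancer or insulator from which a nucleosome has been displaced. Very tall and very short peaks can also arise where reads from many copies of a sequence collect at 1 place of the reference. Well known cases are satellite and other repeats beside centromeres, and nuclear copies of mitochondrial DNA, since the mitochondrial genome carries no nucleosomes and is cut readily by Tn5. Neither a table of repeats nor the sequence of hg19 was used here, so both were approached only through position and width.

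The height of these peaks fell steeply over the first ranks and then levelled off. In control the highest area per base was 46.6, the 99th percentile of the set 25.2, the median 5.42 and the lowest 4.77. In shHMGA1 the same values were 42.4, 25.3, 5.27 and 4.56. The median over all narrow peaks was 1.28 in control and 1.27 in shHMGA1. Only 64 control and 68 shHMGA1 peaks reached an area per base of 10, and 18 and 19 reached 20. Most of each set therefore lay within a small range just above its lowest value, which the curve of area per base by rank shows as a long flat tail.

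The edge of each set did not fall at a gap. In control the peaks ranked 998, 999 and 1000 had an area per base of 4.77, 4.77 and 4.77, and those ranked 1001 to 1003 had 4.76, 4.76 and 4.76. In shHMGA1 all 6 peaks on both sides of the edge had 4.56. One of the control peaks just inside lay on chromosome 17 from 7591402 to 7591829 (hg19, 17p13.1), and the shHMGA1 peak there was wider, 653 bp against 428 bp, and ranked 11966. The shHMGA1 peak just outside at chromosome 16 from 1002574 to 1003021 (16p13.3) lay opposite a control peak ranked 500.

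**Figure D1:**
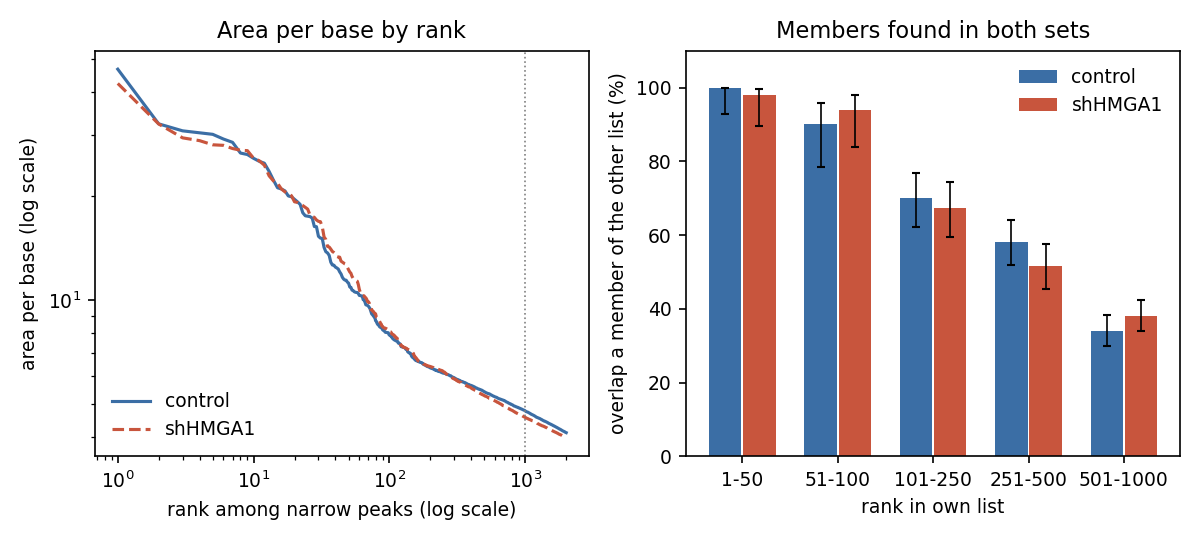
Left, area per base of narrow peaks against rank, both on log scales, for the control list (solid) and the shHMGA1 list (dashed), with the 1000th rank as a dotted line. Right, percent of peaks in each rank group that overlapped a peak of the other set by at least 1 bp. The 95% Wilson intervals cover counting error only. The bars fall from 100% and 98% in ranks 1 to 50 to 34% and 38% in ranks 501 to 1000. The choice of the sets fixes this fall in part, since the last ranks lie just above the lowest value of a set.

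Nearly all the accessible sites were found under both conditions, while their places in the ranking were alike mainly at the top. All 1000 control peaks overlapped some shHMGA1 peak, and 999 of the 1000 shHMGA1 peaks overlapped some control peak (Wilson interval 99.4 to 100%). By counting error alone, a count of 0 sites lacking in shHMGA1 among 1000 allows a share of up to 0.3%. The 1000 are the whole set chosen by rank and not a random sample, so this limit extends to no other peaks. Over all narrow peaks 69.6% of control and 81.6% of shHMGA1 peaks overlapped the other list. The tall peaks were thus shared more often than narrow peaks in general; their height was not independent of this, since the same lists chose them. The single shHMGA1 peak with no control peak lay in the centromeric band 10p11.1, on chromosome 10 from 39101235 to 39101411. It was 177 bp wide, with an area per base of 5.04 and rank 630.

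The 2 sets shared 516 overlapping pairs of peaks. They comprised 515 control peaks (51.5%, interval 48.4 to 54.6) and 516 shHMGA1 peaks (51.6%, 48.5 to 54.7), so the sets covered 1484 sites in all. In bases, 292 kb were common to 621 kb of control and 623 kb of shHMGA1 peaks, 47% and 46.8%. Of all narrow peaks, 0.799% in control and 0.927% in shHMGA1 overlapped a peak of the other set. Overlap was highest at the top of the ranking. The choice of the sets fixes this in part, since the last ranks lay just above the lowest value of a set. Of the first 10 ranks 9 were common to the lists, of the first 100 ranks 85 (85%), and of the first 250 ranks 155 (62%).

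Peaks without a counterpart in the other set faced a peak past the width limit or a narrow peak of lower rank, in all but 1 case. Of 485 such control peaks, 181 lay opposite an shHMGA1 peak of 1000 bp or more and 304 opposite a narrow peak of lower rank. Of 484 such shHMGA1 peaks, the numbers were 194 and 289, plus the 1 without a control peak. The counterparts that were too wide had a median width of 1142 bp in both directions. Only 54 of the 181 in shHMGA1 and 70 of the 194 in control had an area per base as high as the lowest of their list's set. The others fell below that value as well as being too wide. Of the lower-ranked counterparts, 140 of the shHMGA1 peaks and 125 of the control peaks ranked 1001 to 2000, with medians of 2100.5 and 2230. In each direction 25 ranked beyond 10000.

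Width and area both differed between the lists at sites in 1 set only. At 291 sites with 1 peak in each list where the control peak was in its set and the narrow shHMGA1 peak was not, the shHMGA1 peak was wider by a median log2 ratio of 0.11 and its area was lower by a median of -0.23. At the 278 sites of the reverse kind the shHMGA1 peak was narrower by a median log2 ratio of -0.14 and its area higher by 0.09. These opposite signs are fixed by the way the sites were sorted and say nothing of a direction between conditions. Differences in width were common in general. Over all 61114 sites narrow in both lists the log2 ratio of width had a median of -0.03 (quartiles -0.32 and 0.21). At the 291 sites its quartiles were -0.03 and 0.46. One site with a moved edge lay on chromosome 2 at 2q36.3. The control peak there, from 227586940 to 227587068, was 129 bp wide with an area per base of 8.48 and rank 83. The shHMGA1 peak ended at the same base but began at 227586799, so its width was 270 bp, its area per base 3.94 and its rank 2094, while the summit −log10 p was 11 in control and 10.8 in shHMGA1. The summits were 3 bp apart.

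The highest-ranked peaks without a counterpart in the other set were of the same 2 kinds. First in control was a peak of 879 bp beside the centromere of chromosome 8, from 43092710 to 43093588 (8p11.21), with an area per base of 10.3 and rank 63. It faced an shHMGA1 peak of 1369 bp with an area per base of 8.18 whose summit was on the same base. Next came chromosome 3 from 39447834 to 39448675 (3p22.1), with 9.1 against 6.53 in an shHMGA1 peak of 1128 bp. First in shHMGA1 was chromosome 12 from 127650403 to 127651126 (12q24.32), ranked 31 with an area per base of 16.9, which faced a control peak of 1080 bp with 11.1. Second was chromosome 11 from 45848152 to 45848343 (11p11.2), a peak of 192 bp ranked 68, opposite a control peak of 426 bp ranked 1501. In these examples a peak was present in both lists and its called width differed.

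**Figure D2:**
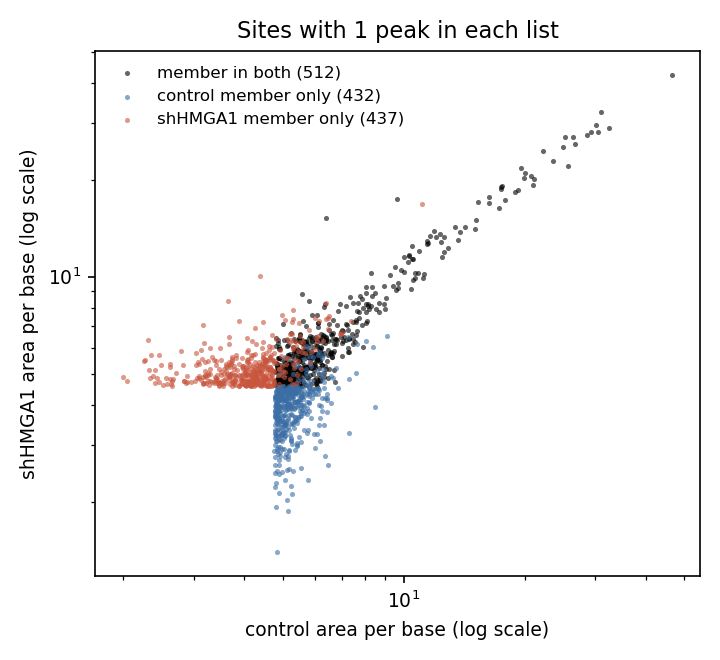
Area per base in control (horizontal) and shHMGA1 (vertical), both on log scales, at sites with exactly 1 peak in each list where at least 1 of them is in its set. Black points are the 512 sites in both sets, which run along the diagonal up to 46.6 and 42.4; coloured points are sites in 1 set only, which spread to either side below about 10.

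Among sites in both sets the rankings agreed closely at the top and hardly at the bottom. Over 512 sites with exactly 1 peak in each list, Spearman's rho of area per base was 0.77 and Pearson's r of its log2 was 0.95. For the 95 sites within the first 100 control ranks rho was 0.95, with a median difference of 5 ranks. For the 417 sites beyond rank 100 it was 0.59, and for the 168 beyond rank 500 it was 0.15. Over all 61114 sites narrow in both lists rho was 0.75. These are descriptions over sites that share 2 lists, with no p, and restricting a range lowers a correlation by itself. Over the 1381 sites with a peak in either set rho was 0.35, a value pulled down by choosing sites for being high in at least 1 list. The summit −log10 p, which the ranking did not use, had a rho of 0.92 over the 512 sites and 0.85 over the 168 beyond control rank 500. Over all 61114 sites it had 0.79. In control ranks 501 to 1000 area per base was confined to 4.77 to 5.41, while the summit −log10 p ran from 7.38 to 18.8. The 2 measures are therefore not compared like for like there.

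The largest moves within both sets were found in the crowded lower ranks. Upward in shHMGA1, the site on chromosome 19 from 48437059 to 48437636 (19q13.33) went from control rank 946 to rank 194, with area per base of 4.82 and 6.43. Its width was 578 bp in control and 442 bp in shHMGA1, and the summit was on the same base in both lists. On chromosome 9 from 66973492 to 66973747 (9q13) the edges were identical, and area per base was 5.02 in control and 7.13 in shHMGA1, ranks 758 and 140. Downward, chromosome 1 from 155715120 to 155715855 (1q22) went from rank 264 to 989, with 6.08 and 4.57, and chromosome 3 from 142695429 to 142695802 (3q23) from rank 152 to 856, with 6.75 and 4.7. Both of these were wider in shHMGA1, at 922 and 585 bp against 736 and 374 bp. The widest gaps in height among members of both sets lay higher up, and were picked out after their values were seen. On chromosome 11 (11q22.3) the shHMGA1 peak from 103280346 to 103280490 had an area per base of 15.2 over 145 bp. The control peak began at the same base but ended at 103280712, so its 367 bp had 6.39, while the summit −log10 p was 18.6 in shHMGA1 and 19.2 in control. On chromosome 2 from 230045432 to 230045749 (2q36.3) the values were 17.5 over 318 bp in shHMGA1 and 9.63 over 537 bp in control.

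Summits of the 2 lists lay closer together at matched sites than at narrow sites in general. At the 512 sites the summits of the 2 lists were a median of 10 bp apart (quartiles 2 and 34), and 51.4% were within 10 bp. Over all sites narrow in both lists the median was 20 bp, and 34.3% were within 10 bp. Edges were most alike in the first ranks. Both edges matched within 2 bp at 38% of the control peaks ranked 1 to 50 and 38.8% of those ranked 51 to 100, but at 2.99% of those ranked 501 to 1000, where 1 peak faced 1 peak. The share over all sites narrow in both lists was 1.15%.

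The share of narrow peaks that were in the sets varied with width. Median width was 679.5 bp (quartiles 369 and 858) in the control set and 678 bp (383 and 861) in the shHMGA1 set, against 438 and 451 bp over all narrow peaks. Peaks of 800 to 999 bp made up 33.8% of the control set and 34.5% of the shHMGA1 set, but 10.6% and 11.2% of narrow peaks. In that class 3.15% of control peaks (interval 2.84 to 3.5) and 3.49% of shHMGA1 peaks (3.14 to 3.87) were in the sets. The least represented class was 300 to 399 bp, with 0.421% and 0.491%. Below it the share rose again, to 0.858% and 0.814% at 200 to 299 bp and 0.602% and 0.838% under 200 bp. No peak of either list had an area under 200, so short peaks of low area per base could not be listed. Their absence raises the shares of the short classes by itself, and the limit of 1000 bp cuts off the widest class.

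The shortest peaks were concentrated at the very top. Of the first 100 ranks 31 in control and 29 in shHMGA1 were under 200 bp wide, and 11 and 6 were 800 bp or more. Median width was 316.5 bp in control ranks 1 to 50, 292.5 bp in ranks 51 to 100 and 678.5 bp in ranks 101 to 250. In shHMGA1 it was 335, 252.5 and 725.5 bp. The narrowest peak was 121 bp wide in both sets. Short peaks were thus most frequent at the head of the ranking, and the ranks after the first 100 had a larger median width.

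**Figure D3:**
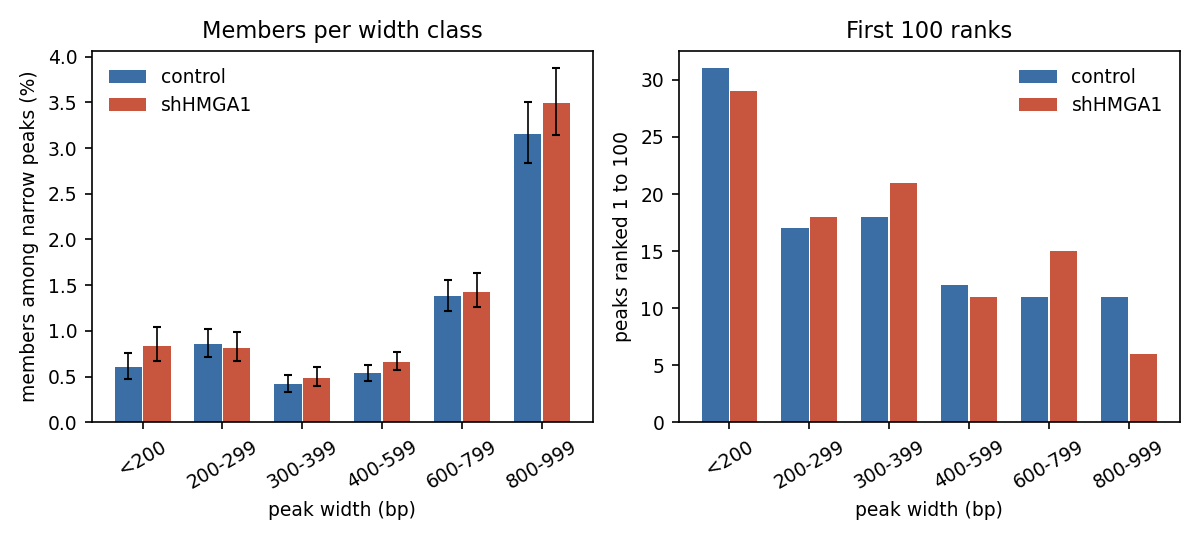
Left, percent of narrow peaks in each width class that belong to the set of 1000, for control and shHMGA1, with 95% Wilson intervals that cover counting error only. Right, number of peaks in each width class among the first 100 ranks; the class under 200 bp holds 31 control and 29 shHMGA1 peaks.

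The ratio of area per base to summit −log10 p also changed along the ranking. If the area is counted above a floor, the ratio rises with height by itself. For this reason the ratio is not read as a measure of shape. Its median was 0.69 in control ranks 1 to 50, 0.62 in ranks 51 to 100, 0.49 in ranks 101 to 250, and 0.42 in ranks 501 to 1000. In shHMGA1 the same groups had 0.68, 0.64, 0.48 and 0.43. All narrow peaks had 0.25 in both lists. The first ranks thus had the highest ratios, and this is at least in part what a high area per base selects for. Whether their shape differed was not tested. The summit −log10 p had a median of 12.7 in the control set and 12.3 in the shHMGA1 set, against 4.89 and 4.86 over narrow peaks.

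Summits lay near the middle of these peaks. The median position was 0.49 of the width in both sets and 0.5 over all narrow peaks. Between 25% and 75% of the width lay 87.4% of control summits (interval 85.2 to 89.3) and 85.4% of shHMGA1 summits (83.1 to 87.5), against 72.7% and 73.6% over narrow peaks. A few tall peaks were lopsided. The control peak at chromosome 2 from 88124353 to 88124936 (2p11.2, rank 23) had its summit at 0.15 of its width, and that at chromosome 17 from 51183046 to 51183804 (17q22, rank 31) at 0.87.

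The tallest peak of both sets was on chromosome 13 at 13q33.3. It ran from 110076425 to 110076742 in control, with an area per base of 46.6 and a summit −log10 p of 57.3, and to 110076766 in shHMGA1, with 42.4 and 56. Its summit was on the same base in the 2 lists. The next in control was chromosome 7 from 45291526 to 45291756 (7p13), with 32.4 in control and 28.9 in shHMGA1, ranks 2 and 4. Chromosome 1 from 156186181 to 156186713 (1q22) had 30.9 and 32.3, ranks 3 and 2, with identical edges and summit.

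Several of the first 10 were less than 200 bp wide. Chromosome 7 from 145694388 to 145694566 (7q35) had an area per base of 30.5 in control and 28.1 in shHMGA1. Chromosome 12 from 41757401 to 41757572 (12q12) had 29.2 and 28, and chromosome 8 from 100508052 to 100508226 (8q22.2) had 28.6 and 27.5. Chromosome 1 from 38077303 to 38077465 (1p34.3) had 26.6 and 25.7 in peaks of 163 bp with identical edges. All 4 were lower in shHMGA1. The others of the control 10 were chromosome 17 from 22020579 to 22020972 (17p11.2), with 30.2 and 29.5, chromosome 17 from 31149376 to 31149941 (17q11.2), with 26.4 and 27.1, and chromosome 1 from 91852720 to 91853211 (1p22.2), with 25.7 and 22.1. Only the last left the first 10 in shHMGA1, for rank 14, and the centromeric site at chromosome 20 from 26189699 to 26190559 (20p11.1) took a place there, with 27.1 in shHMGA1 and 25.2 in control.

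The difference in height between lists varied with width. Area per base was lower in shHMGA1 at 58.5% of all 61114 sites narrow in both lists and at 306 of the 512 matched sites (59.8%), with a median log2 ratio of -0.04. At 62 matched sites with a mean width under 200 bp it was lower at 47 and higher at 15, with a median log2 ratio of -0.08 (quartiles -0.12 and -0.01). At 95 sites of 200 to 399 bp it was lower at 40 and higher at 55, with a median of 0.05. The 355 sites of 400 bp or more, the bulk of the matched sites, went the same way as the shortest, with 219 lower and 136 higher and a median of -0.04. The tallest sites of that width did not follow the bulk. Among sites with an area per base of 10 or more in either list, area per base was lower in shHMGA1 at 17 of 19 sites under 200 bp wide, with a median of -0.08, and at 13 of 51 wider sites, with a median of 0.11. Those 51 were 32 sites of 200 to 399 bp, with 8 lower, and 19 sites of 400 bp or more, with 5 lower. A contrast between short and wider sites was thus seen at this height, while below it most sites of 400 bp or more were lower in shHMGA1, 214 of 336. Over all sites narrow in both lists, 63.2% of those under 200 bp, 57.1% of those of 200 to 399 bp and 58.7% of those of 400 bp or more were lower in shHMGA1. The level of a whole list depends on read depth, which is unknown, so only the contrast of widths within the 2 lists is described. This contrast was noticed in the data and was not tested.

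**Figure D4:**
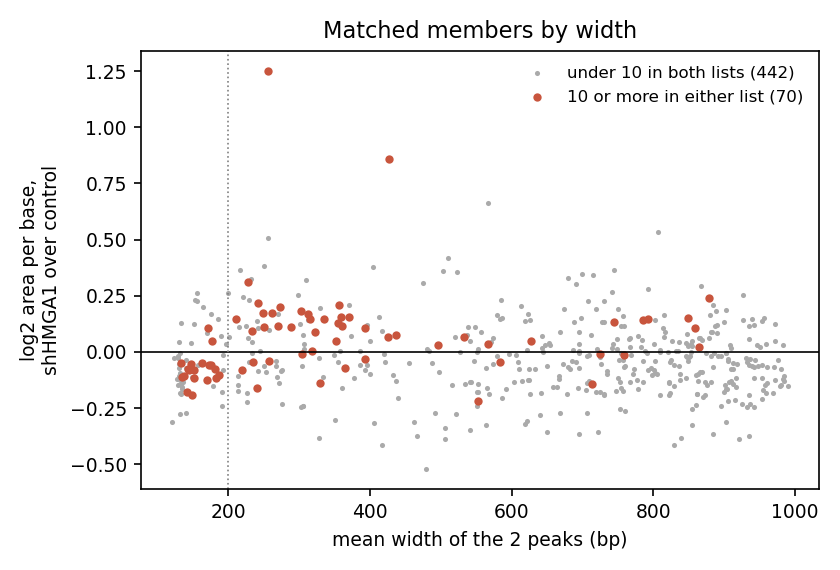
Log2 ratio of area per base (shHMGA1 over control) against the mean width in bp of the 2 peaks at 512 matched sites. Red points have an area per base of 10 or more in either list; left of the dotted line at 200 bp 17 of 19 of them lie below 0, and right of it 13 of 51.

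Tall narrow peaks were more frequent beside centromeres than narrow peaks in general. Within 1 Mb of a centromeric chromosome band lay 79 control peaks (7.9%, interval 6.38 to 9.74) and 90 shHMGA1 peaks (9%, 7.38 to 10.9). The background was 2.11% and 2% of narrow peaks. Some of these peaks stood in chains with gaps of at most 10 kb, such as 8 in shHMGA1 at 10p11.1 and 5 in each list at 17p11.2. The intervals treat every peak as independent and do not allow for such chains. Within 5 Mb the numbers were 136 (13.6%) and 148 (14.8%), against 5.81% and 5.53%. In the centromeric bands themselves lay 27 and 34 peaks, 2.7% and 3.4% against 0.874% and 0.846%. With the variable and stalk bands added, which also hold repeats, the numbers were 40 (4%) and 46 (4.6%), against 1.29% and 1.24%. The share within 1 Mb was highest in the first 100 ranks, with 21 peaks in each list, and was 6.4% in control and 5.4% in shHMGA1 for ranks 501 to 1000. Such bands hold large arrays of satellite repeats; whether these peaks lie in repeats was not tested.

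The direction between lists also varied with distance from the centromere. Among the 62 matched sites within 1 Mb, area per base was higher in shHMGA1 at 37 and lower at 25, with a median log2 ratio of 0.07. Of these, the 48 sites of 200 bp or more had 31 higher and 17 lower, with a median of 0.11, and the 14 shorter ones had 6 higher and 8 lower, with a median of -0.01. Among the 450 matched sites farther away it was higher at 169 and lower at 281, with a median of -0.05. The summit −log10 p was higher in shHMGA1 at 47 of the 62 and at 158 of the 450. Over all 61114 sites narrow in both lists it was higher at 22850. Of the 62, it was higher at 37 of the 48 wider sites and at 10 of the 14 shorter ones. By this measure short and wider sites near centromeres thus went the same way. Sites in the same chain of neighbouring peaks were counted singly in all these numbers. Examples were chromosome 20 from 26189701 to 26190556 above, and chromosome 2 from 92269017 to 92269884 (2p11.1), with 11.4 in control and 12.7 in shHMGA1. The peak at chromosome 6 from 62283973 to 62284280 (6q11.1) went slightly the other way, with 20.7 and 20.6.

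Most tall peaks were not crowded by other narrow peaks more than usual. A narrow peak of the same list lay within 10 kb of 65.2% of the control set and 64% of the shHMGA1 set, against 70% and 67.1% of narrow peaks. Some members nevertheless stood in tight groups. Chains of set peaks with gaps of at most 10 kb numbered 24 in control, with 67 peaks, and 31 in shHMGA1, with 83 peaks. The largest in shHMGA1 held 8 peaks over chromosome 10 from 39101235 to 39138273 (10p11.1), in a centromeric band, where the control list had chains of 5 and 2. Chromosome 5 from 99382130 to 99389663 (5q21.1) held 6 control peaks of 134 to 378 bp, and from 99382128 to 99389657 also 6 in shHMGA1. That group is 48.7 Mb from the centromeric bands. Its area per base ran from 5.35 to 21.1 in control and from 4.81 to 20 in shHMGA1. Further groups of 4 or 5 stood on chromosome 17 from 22020579 to 22024043 (17p11.2), 5 in each list, and on chromosome 7 from 142373435 to 142375485 (7q34), 4 in each list. In the 7q34 groups all peaks were 132 to 187 bp wide.

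Some of these short peaks lie in bands known for nuclear copies of mitochondrial ribosomal RNA sequence. The MTRNR2L genes are such copies, related to the mitochondrial gene for the large ribosomal RNA, and 12 of the family are on chromosomes 1 to 22. Their bands were taken from general knowledge after the peaks had been seen, and RefSeq (GRCh38.p14) placed each gene on the same chromosome. An area per base of 10 or more was reached by a narrow peak in 5 of these 12 bands in both lists. Among all bands with narrow peaks the share was 7.28% (57 of 783) in control and 7.67% in shHMGA1. The 5 bands were 17p11.2, 5q14.1, 20q13.31, 7q34 and 6q11.1, and they held 8 of the 64 control peaks and 8 of the 68 shHMGA1 peaks at that level. These bands were singled out because they hold such a peak. The highest peaks of 17p11.2 and 6q11.1 were also within 1 Mb of a centromeric band, where tall narrow peaks were more frequent. Bands differ in their number of narrow peaks too, and the share over all bands allows for neither. All 12 bands together held the same 8 and 8 such peaks, with 1.61% of control and 1.56% of shHMGA1 narrow peaks. In 5q14.1 the peak ran from 79945796 to 79946032, with 18.9 in control and 18.3 in shHMGA1. In 20q13.31 the pair began at 55934145 and 55935313, with 12.4 and 10.6 in control and 11.5 and 10.3 in shHMGA1. A band is far wider than a gene, so this places no peak in a gene, and descent from mitochondrial DNA was not tested.

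Band 1p36.33 is known, as background, for a long nuclear copy of mitochondrial DNA. At the place searched for it the control list had a single peak of 5964 bp and the shHMGA1 list a single peak of 5968 bp, well over the width limit. Whether that peak is the copy was not tested. No peak of either set lay within 100 kb of it. Farther out, at the very end of 1p, the control list had a pair of members between bases 9952 and 11452, with an area per base of 6.64 and 7.8. The shHMGA1 list had a pair there too, from 9951 to 11448, with 5.62 and 8.71. A further pair near a chromosome end was on chromosome 15 from 102519721 to 102521443 (15q26.3). Peaks within 5 Mb of a chromosome end were not more frequent, with 6.8% of the control set and 5.8% of the shHMGA1 set against 7% and 6.69% of narrow peaks.

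All 22 chromosomes held tall narrow peaks, but unevenly. The number ran from 14 on chromosome 22 to 108 on chromosome 2 in control, and from 13 to 104 on the same chromosomes in shHMGA1. Per Mb it ran from 0.168 to 0.727 in control and from 0.166 to 0.457 in shHMGA1, with medians of 0.338 and 0.339. As a share of narrow peaks, chromosome 4 was lowest, with 0.437% (interval 0.343 to 0.558) in control and 0.499% (0.393 to 0.635) in shHMGA1. Chromosome 9 had 0.648% and 0.693%. High shares were found on chromosome 16, with 1.97% and 2.29%, chromosome 22, with 2.22% and 2.28%, chromosome 7, with 1.76% and 2.06%, and chromosome 10, with 1.65% and 2.3%.

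Chromosomes 4 and 9 each have a long stretch dense in peaks. The segments from 154000001 to 189000000 on chromosome 4 and from 2000001 to 21000000 on chromosome 9 held 13.7% of control and 14.5% of shHMGA1 narrow peaks. They held only 13 control (1.3%, interval 0.761 to 2.21) and 16 shHMGA1 (1.6%, 0.987 to 2.58) peaks of the sets. Outside its segment, chromosome 4 had 1.06% of its narrow peaks in the control set (interval 0.81 to 1.37) and 1.22% in the shHMGA1 set (0.935 to 1.59). Chromosome 9 had 1.46% (1.1 to 1.95) and 1.56% (1.16 to 2.09) outside its segment. Chromosome 13, which has no such segment, was also low, with 0.531% in control and 0.809% in shHMGA1. By area per base, peaks of the dense segments were thus seldom among the 1000. When peaks were ranked by summit −log10 p instead, the segments held 4.3% of the control set and 4.5% of the shHMGA1 set, and with a width limit of 2000 bp 2.3% and 2%. An exception was chromosome 4 from 167501019 to 167501944 (4q32.3), ranked 57 in control with 10.5 and 49 in shHMGA1 with 12.4. Gene-rich, Giemsa-negative bands held 49.9% of the control set and 48.5% of the shHMGA1 set, against 44.9% and 45.1% of narrow peaks. In the darkest bands lay 12.7% and 13.9%, against 20.8% and 21%.

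**Figure D5:**
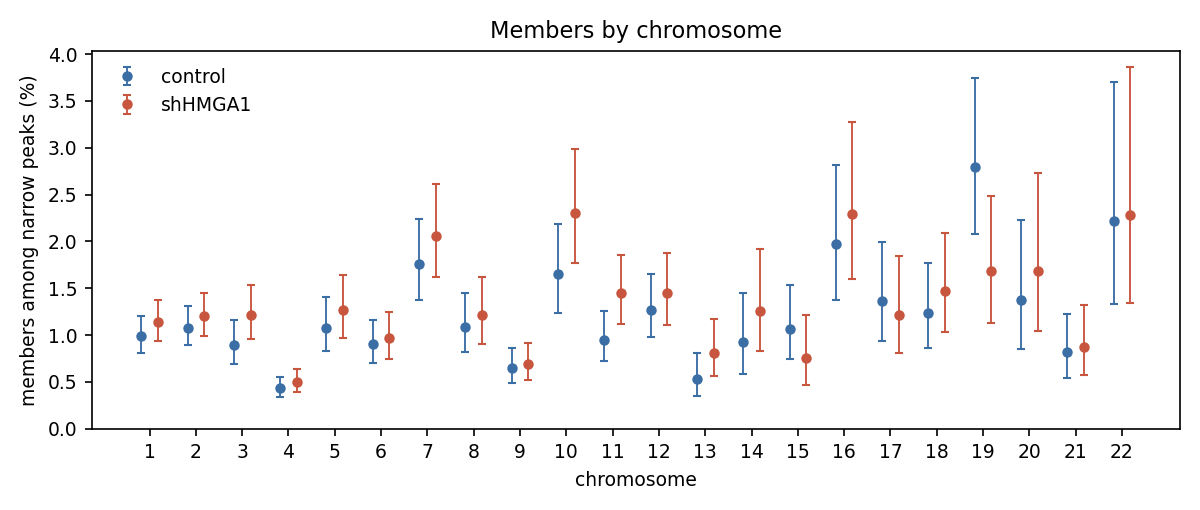
Percent of narrow peaks on each chromosome that belong to the set of 1000, for control and shHMGA1, with 95% Wilson intervals that cover counting error only. Chromosome 4 is lowest in control at 0.437%, and chromosome 19 is highest in control at 2.79% but has 1.68% in shHMGA1.

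Chromosome 19, which is rich in genes, had the largest difference in number between the sets. It held 43 control peaks (4.3% of the set, interval 3.21 to 5.74) and 24 shHMGA1 peaks (2.4%, 1.62 to 3.55). Of its narrow peaks these were 2.79% (2.08 to 3.74) and 1.68% (1.13 to 2.49). Of these peaks 18 were in both sets. Of the remaining 25 control peaks 10 faced an shHMGA1 peak past the width limit and 15 a narrow peak of lower rank, so none of these sites was missing from shHMGA1. The gap was present with 500 peaks per list (3.4% and 2.4%) and with 2000 (4.2% and 2.95%), settings added after the count was seen. Chromosome 15 had 28 control and 17 shHMGA1 peaks, and chromosome 11 had 49 and 60. With 22 chromosomes to look at and 1 list per group, these differences carry no test.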

How the data were processed

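ATAC-seq libraries came from 3 control and 3 shHMGA1 samples of DAMI cells; per the labels, 50000 cells were tagmented for each. The submitters' processing notes name Genrich as the peak caller and hg19 as the build. The sources used here do not give settings or versions, an aligner, filters on reads, or how the samples of a group were joined, and read depth is unknown. The group of a list comes from the name it was deposited under. The deposited signal is a peak's area of significance, the deposited −log10 p is that of the summit, unadjusted, and the deposited score equals 1000 times area per base, capped at 1000, in 127153 of 127153 control and 112608 of 112610 shHMGA1 rows. The q column is −1 throughout. The deposited summit −log10 p exceeded area per base by at least 2.07 in control and 2.16 in shHMGA1. These values depend on depth and on how wide a peak is called.

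Peaks were ranked by area per base. Peaks were shared where at least 1 bp overlapped. Matched sites have exactly 1 peak in each list. Bands are those of hg19 in the R package circlize. Dense segments are 5 or more successive 1 Mb windows in which both lists exceeded or equalled 4 times their median window count. Wilson intervals (95%) and the limit of 3 counts for a count of 0 cover counting error only. Named sites are the 10 highest of each list, 3 on each side of the edge, the 5 highest without a counterpart in the other set (some of these are given), the largest rank moves, and those beside centromeres; the other sites named were chosen after their values were seen. The sets, lists and comparisons were chosen with earlier results of these data known. Overlap and ranking were checked on simulated lists. Tools were Python 3.11.15 with pandas 2.3.3 and numpy 2.4.6, intervals from scipy 1.17.1, and plots from matplotlib 3.10.9. Genes, promoters, motifs and sequences at the sites were not analysed here, because no hg19 annotation or sequence was used.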

Additional observations from a re-analysis of the deposited data

How the results depend on the processing

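Of 56 planned recomputations 37 stayed within the counting interval of the reported value. A width limit of 2000 bp raised the overlap of the sets to 65.1% of control and 65% of shHMGA1 peaks and the median widths to 1381 and 1369 bp, and 2.3% of the control set then lay in the dense segments. The sets of 500 overlapped at 55.4% and 55.6%, with rho 0.82 and a median width of 628 bp in shHMGA1, and sets of 2000 had rho 0.69. Ranking by summit −log10 p gave median widths of 852 and 851 bp and 4.3% and 4.5% in the dense segments. Every shHMGA1 peak overlapped a control peak (100%) with that ranking, with a width limit of 2000 bp and with sets of 500. A reciprocal overlap of 50% lowered the overlap with any peak to 95.8% of control and 94.2% of shHMGA1 peaks. The share within 1 Mb of a centromeric band was 4.3% and 5% when ranked by summit −log10 p, and 5.8% and 6.2% in sets of 2000; in shHMGA1 it was 12.6% in sets of 500 and 7.3% with a width limit of 2000 bp, settings chosen after seeing the data. Adding chromosome X or leaving out the dense segments moved none of the overlaps, widths or rank correlations beyond these intervals. The causes were not tested. No paired analysis was possible because the deposited lists do not separate the samples, and leaving out a replicate was not possible either. Unknown read depth limits every comparison of levels between the lists.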

Other observations

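Most peaks as tall as these were wider than the limit. On chromosomes 1 to 22, 3545 of 24319 control peaks of 1000 bp or more (14.6%) had an area per base above the lowest value of the control set, and 3576 of 22381 shHMGA1 peaks (16%). The narrow sets therefore made up 22% and 21.9% of all peaks past those values. The wide ones had a median width of 1647 bp in control and 1639 bp in shHMGA1, and all of them overlapped a peak of the other list. They lay beside centromeres less often than the narrow sets did, with 3.05% and 3.13% within 1 Mb, and more often in Giemsa-negative bands, with 55.2% and 53.5%. On chromosome 19 lay 3.3% of the wide control peaks and 2.8% of the wide shHMGA1 peaks, closer to each other than the 4.3% and 2.4% of the narrow sets.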
